A study of Mus musculus with 6 samples.

Results

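The 8 regulators of G-protein signalling Rgs2, Rgs3, Rgs10, Rgs12, Rgs14, Rgs16, Rgs17 and Rgs19 were examined in mouse colorectal tumour cells, on 3 arrays labelled IRF2 and 3 GFP control arrays. Their probe sets were taken by the gene symbol in the platform annotation, which gave 20 of the 45101 probe sets, and 8 of 18193 named genes. The genes were chosen by their place in this family with the array results already known: Rgs2 had one of the largest falls on the arrays labelled IRF2. All differences of the 8 genes between the groups are therefore given as a description, without p-values, and calls among them support nothing by themselves.

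All 6 arrays hold total RNA of a single numbered culture of iKAP primary cells. iKAP names an inducible mouse model of colorectal cancer with Apc and Trp53 deleted in the gut epithelium. The labels do not list the alleles of this culture or say whether the inducer was present, and they name a tetracycline-free additive in the medium. The cells of the first group are labelled as stably expressing an IRF2 open reading frame from a lentiviral construct, and those of the GFP control group as expressing GFP from the same kind of construct. Whether the 3 arrays within each group are separate cultures is not stated in the labels, so the spread between them, on which the p-values rest, may be technical. IRF2 is a transcription factor that binds interferon-responsive DNA elements. The probe set named to Irf2 read 37.0, 36.6 and 35.2 on the arrays labelled IRF2 and 65.4, 60.5 and 62.0 on the GFP control arrays (log2 difference -0.79, SE 0.06, adjusted p = 1.73e-07 by limma). This is opposite to the label. The sources used here do not say whether this probe set can see the introduced open reading frame. Whether the labels of the groups were exchanged was not tested, and an exchange would turn the sign of every difference given here, so the group is called "labelled IRF2" throughout.

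A heterotrimeric G protein signals while its alpha subunit holds GTP. RGS proteins bind the active alpha subunit through a shared RGS domain and speed the hydrolysis of GTP, which shortens the signal of a G-protein-coupled receptor. The small R4 regulators (Rgs2, Rgs3 and Rgs16 among the 8) act on the Gq and Gi families, and Rgs2 prefers Gq. The R12 group (Rgs10, Rgs12 and Rgs14) acts on Gi, and its larger members Rgs12 and Rgs14 also carry a GoLoco motif, which holds the alpha subunit in its inactive form. The RZ group (Rgs17 and Rgs19, with Rgs20) carries a cysteine string and acts on Gz and Gi. Several RGS genes, Rgs2 among them, are themselves induced by receptor signalling.

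Values are deposited intensities, one per probe set and array, and a difference is that of the mean log2 intensities, arrays labelled IRF2 minus GFP control arrays, with its standard error (SE) from limma. Array medians lay between 18.2 and 18.7. A gene was represented by its probe set with the highest mean, and genes at or under an intensity of 11.3, the 40th percentile of the probe sets, were not tested. A gene was called at a Benjamini-Hochberg adjusted p under 0.05 over all 12795 genes tested. Probe sets bind their own RNA with different strength, so levels were compared between arrays and not between genes.

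Of the 8 regulators, 3 were lower on the arrays labelled IRF2 (Rgs2, Rgs17 and Rgs19), 1 was higher (Rgs12), 3 were not called (Rgs3, Rgs10 and Rgs14) and Rgs16 lay under the filter. Of all genes tested, 36.3% were called, 19.8% as lower and 16.5% as higher, and the groups did not overlap in 46.2%. Of the 20 probe sets of the 8 genes, 14 lay above the filter, each of them on every array. In 7 of the 14, all arrays labelled IRF2 read lower than all GFP control arrays, and in 1 they all read higher. In the other 6 the groups overlapped, as they did in all 6 probe sets under the filter. The 7 belong to Rgs2, Rgs17 and Rgs19 and are not separate genes. The 46.2% counts 1 probe set a gene, with 3095 of the 12795 genes lower without overlap and 2810 higher. A share over all probe sets was not taken, so the 7 of 14 have no like background.

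**Figure D1:**
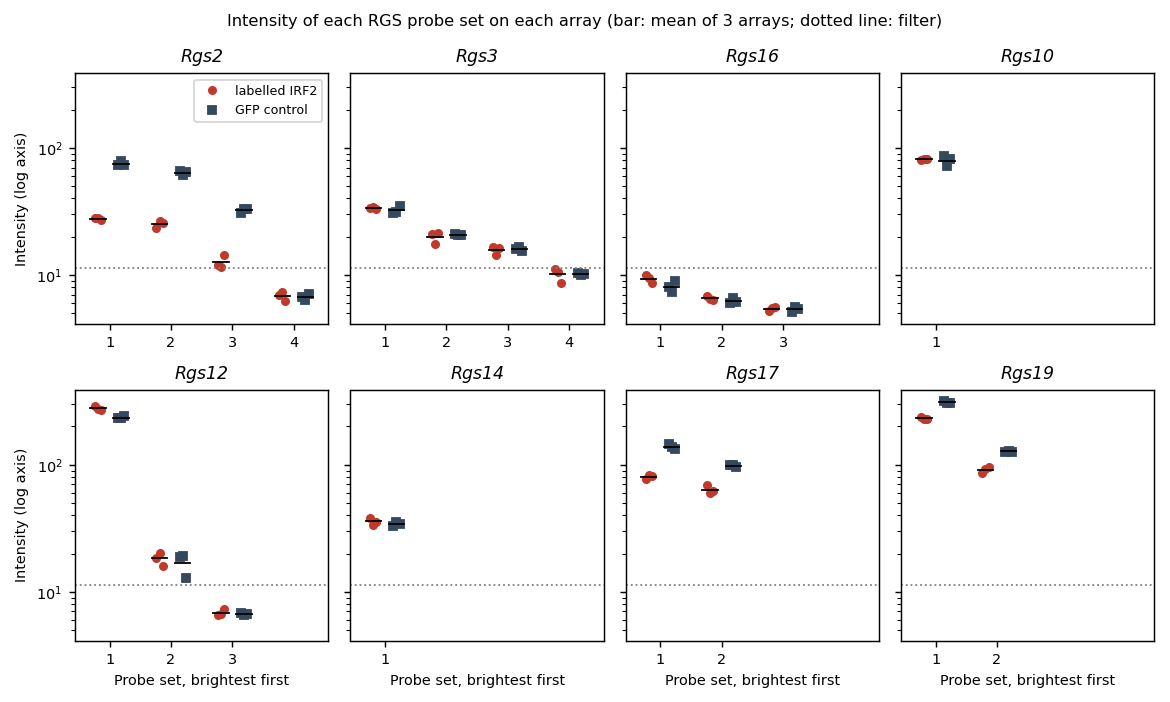
Intensity (log axis) of each probe set of the 8 regulators on each array, numbered from the brightest within a gene; circles are arrays labelled IRF2, squares are GFP control arrays, bars are means of 3 arrays and the dotted line is the filter at 11.3. The groups stand apart in 3 of the 4 probe sets of Rgs2 and in both probe sets of Rgs17 and of Rgs19.

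The upstream sequences of the 3 regulators that were lower are shown first, as the stretch searched for an IRF-binding motif and a cAMP response motif. They are the 250 bases before the annotated start, 5′ to 3′ on the gene's strand, from RefSeq (GRCm38.p6). Capitals mark 2 motifs on either strand: TGACG, the half-site of the cAMP response element, and GGGCGG, the GC box. Rgs2 lies at chr1:144004150-144004399, Rgs17 at chr10:5922401-5922650 and the first of 3 listed windows of Rgs19 at chr2:181693978-181694227, all on the minus strand.
Rgs2: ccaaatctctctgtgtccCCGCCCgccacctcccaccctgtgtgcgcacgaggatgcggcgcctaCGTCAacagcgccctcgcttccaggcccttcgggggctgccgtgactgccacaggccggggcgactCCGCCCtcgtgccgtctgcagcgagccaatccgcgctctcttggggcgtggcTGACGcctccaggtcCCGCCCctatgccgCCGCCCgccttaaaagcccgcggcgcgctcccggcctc
Rgs17: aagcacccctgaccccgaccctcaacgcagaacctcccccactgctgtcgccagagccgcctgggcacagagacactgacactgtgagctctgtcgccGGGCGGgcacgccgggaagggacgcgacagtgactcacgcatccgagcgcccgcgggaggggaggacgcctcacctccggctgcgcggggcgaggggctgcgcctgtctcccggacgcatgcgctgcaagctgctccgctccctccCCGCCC
Rgs19: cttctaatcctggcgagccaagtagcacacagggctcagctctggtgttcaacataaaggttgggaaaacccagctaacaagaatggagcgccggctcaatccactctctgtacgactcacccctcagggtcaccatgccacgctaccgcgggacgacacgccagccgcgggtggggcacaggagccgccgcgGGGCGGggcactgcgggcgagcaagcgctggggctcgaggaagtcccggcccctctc

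The Rgs2 window held 2 TGACG matches, beginning 185 and 67 bases before the start, and 4 GC boxes. The Rgs17 window held 2 GC boxes and the Rgs19 window 1, and neither held TGACG. Of all 32851 listed windows of this length, 17.8% held TGACG and 32.7% held a GC box. The core of the IRF-binding element, AANNGAAA, stood in 21.3% of all windows. It was not found in the windows of Rgs2, Rgs17 and Rgs19, counting all 3 windows of Rgs19. Of the 11 windows listed for 7 of the 8 regulators (none for Rgs14), AANNGAAA occurred in 1, the second window of Rgs12, where a TGACG match also lay. A match of letters is not a binding site, and its absence here says only that the letters are not in these 250 bases.

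Among the R4 regulators, Rgs2 was called, Rgs3 was not, and Rgs16 was not tested. The brightest probe set of Rgs2 read 28.0, 28.2 and 27.0 on the arrays labelled IRF2, against 72.9, 78.6 and 73.9 on the GFP control arrays. Every array labelled IRF2 was thus far below every control array, at 37.0% of the control level on the log scale (log2 difference -1.44, SE 0.06), the 6th largest fall of the 12795 genes. The second probe set read 23.3, 26.8 and 25.6 on the arrays labelled IRF2 and 65.8, 61.0 and 64.6 on the control arrays, a difference of -1.34 (SE 0.07). The next, whose probes are shared by several transcripts by its name's suffix, read 11.9, 11.5 and 14.2 on the arrays labelled IRF2 and 30.8, 33.1 and 33.1 on the control arrays (-1.37, SE 0.09). In these 3 probe sets the level was lower by 60.5% to 63.0%, close to one size, although they differ in brightness. The fourth read 6.94, 7.32 and 6.27 on the arrays labelled IRF2 and 6.73, 6.40 and 7.04 on the control arrays. At that level it lay near the 3 tryptophan control probe sets, which no mouse transcript should fill and which read between 3.69 and 6.52, and it showed no separation of the groups. With this dim probe set averaged in, the difference of Rgs2 came to -1.03, and with 16 added to each intensity before the log to -1.06.

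Rgs3, which acts on both Gi and Gq, showed no separation. Its brightest probe set read 33.6, 34.4 and 33.0 on the arrays labelled IRF2 and 30.7, 31.4 and 35.2 on the control arrays (log2 difference 0.06, SE 0.08). Its 2 other probe sets above the filter gave -0.05 (SE 0.09) and -0.02 (SE 0.09), and its dimmest one averaged 10.1 in both groups. Rgs16, a further R4 regulator of Gi and Gq, was dim in both groups. Its brightest probe set read 10.0, 9.44 and 8.66 on the arrays labelled IRF2 and 8.003, 7.32 and 8.91 on the control arrays, with overlap, and its other 2 averaged between 5.36 and 6.55. No difference was detectable at this level.

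In the R12 group, Rgs12 was higher, and the groups overlapped in Rgs10 and Rgs14. Rgs12 has several forms, the longest with a PDZ and a phosphotyrosine-binding domain. Its brightest probe set read 290.0, 276.7 and 271.7 on the arrays labelled IRF2 and 232.5, 231.4 and 240.5 on the control arrays, without overlap (log2 difference 0.25, SE 0.04). Its second probe set read 18.6, 20.3 and 16.1 on the arrays labelled IRF2 and 18.8, 19.3 and 12.8 on the control arrays (0.13, SE 0.14), with overlap, and its dimmest stayed between 6.52 and 7.27. In the mean of the 3 probe sets the difference of Rgs12 was 0.14 (SE 0.06) and it was no longer called, which left 3 of 7 regulators called. Rgs10, the small member that consists of little beyond the RGS domain, read 80.6, 82.0 and 81.1 on the arrays labelled IRF2 and 85.7, 71.8 and 81.1 on the control arrays (0.03, SE 0.06). The control arrays spanned those labelled IRF2. Rgs14 read 38.2, 33.6 and 35.7 on the arrays labelled IRF2 and 32.8, 35.5 and 34.2 on the control arrays (0.07, SE 0.07), also with overlap. That Rgs3, Rgs10 and Rgs14 were not called does not show that their levels were equal.

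Both RZ regulators among the 8 were lower, in both probe sets of each gene. Rgs17 read 77.4, 82.9 and 81.1 on the arrays labelled IRF2, against 144.4, 137.4 and 132.5 on the GFP control arrays, in its brighter probe set (log2 difference -0.78, SE 0.05, a fall of 41.7%). Its other probe set read 68.8, 59.5 and 62.4 on the arrays labelled IRF2 and 99.9, 98.8 and 95.6 on the control arrays (-0.63, SE 0.06). The highest array labelled IRF2 was below the lowest control array in each. Rgs19, also known as GAIP, read 239.1, 227.3 and 229.1 on the arrays labelled IRF2 and 314.8, 306.1 and 307.9 on the control arrays (-0.42, SE 0.03, a fall of 25.1%). Its other probe set, of a type that may also bind related transcripts by its name's suffix, read 85.4, 93.0 and 95.2 on the arrays labelled IRF2 and 125.9, 129.3 and 126.5 on the control arrays (-0.48, SE 0.05). Again no array of one group reached the other.

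Over the alternatives tried, the differences of the called regulators kept their sign: Rgs2 ran from -1.46 to -1.03, Rgs17 from -0.81 to -0.68, Rgs19 from -0.45 to -0.39 and Rgs12 from 0.14 to 0.27. Those of Rgs3 (-0.01 to 0.11) and Rgs10 (-0.04 to 0.09) changed sign among them. Rgs14 ran from 0.02 to 0.11.

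**Figure D2:**
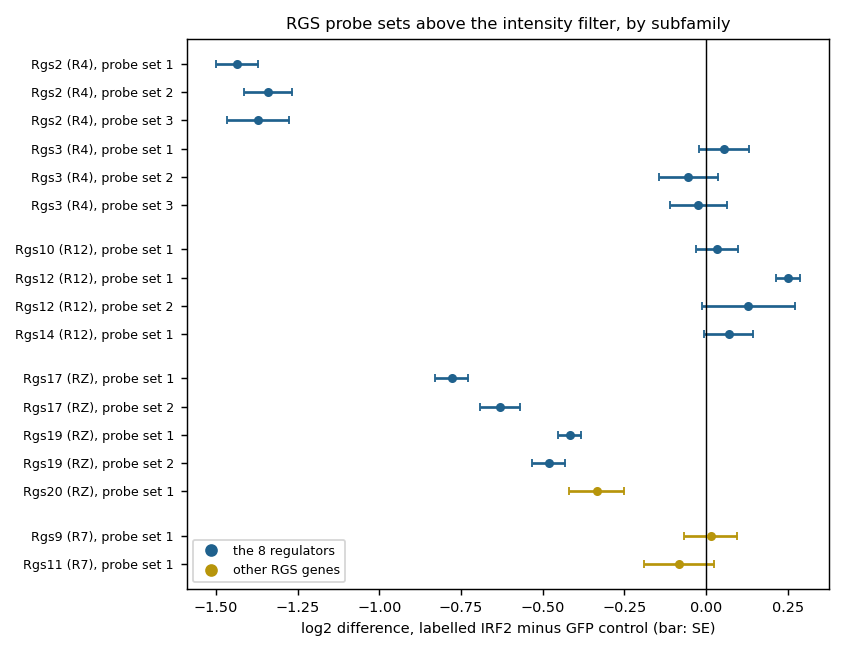
Log2 difference, arrays labelled IRF2 minus GFP control arrays, of each RGS probe set above the intensity filter, grouped by subfamily; points are differences and bars their SE, and probe sets are numbered from the brightest within a gene. The 3 probe sets of Rgs2 lie between -1.44 and -1.34, those of the RZ genes between -0.78 and -0.33, and the others between -0.08 and 0.25.

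The rest of the family gave few signals. Of 11 other RGS genes with a probe set, 8 lay under the filter, with array values between 3.17 and 9.58. These 8 were Rgs1, Rgs4, Rgs5, Rgs6, Rgs7, Rgs8, Rgs13 and Rgs18. Of the 3 tested, Rgs20, the remaining RZ gene, read 16.1, 15.8 and 15.5 on the arrays labelled IRF2 and 18.5, 21.2 and 20.4 on the control arrays (log2 difference -0.33, SE 0.08, adjusted p = 0.0055). It is dim, its 2 other probe sets lay under the filter with differences of 0.13 and -0.17, and in the mean of all 3 the call was lost (-0.13, adjusted p = 0.181; the alternatives gave 0.00396 to 0.181). The R7 genes Rgs9 and Rgs11, whose products work in complex with the beta subunit Gnb5, differed by 0.01 (SE 0.08, adjusted p = 0.922) and -0.08 (SE 0.11, adjusted p = 0.605), and the sign of both turned among the alternatives. Of Rgs9's 3 probe sets, 2 averaged 5.12 and 5.30 on the arrays labelled IRF2 and 5.27 and 5.41 on the control arrays, while the remaining one averaged 77.6 on the arrays labelled IRF2 and 77.0 on the control arrays.

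In the list of other RGS genes and genes with a related domain, 14 of 29 were tested, of which 1 rose and 2 fell. Grk5, a kinase that phosphorylates active receptors, rose to 150.0 ± 6.56 on the arrays labelled IRF2, against 119.0 ± 6.94 on the control arrays (SD, n = 3 each; log2 difference 0.33, SE 0.05, adjusted p = 1.23e-04). Besides Rgs20, the sorting nexin gene Snx25 fell by 0.16 on the log2 scale (SE 0.04, adjusted p = 0.0063). The share called, 21.4%, was under that of all genes tested, and the list's median difference was 0.02, against -0.0007 over all genes tested.

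Rgs2 lies on chromosome 1 at one end of a run of RGS genes. The next genes with a probe set on the side of the run, Rgs13, Rgs1 and Rgs18, averaged between 3.84 and 8.35 in the 2 groups, under the filter. On the other side the nearest gene, Uchl5, a deubiquitinase of the proteasome, was lower at 656.6, 676.8 and 674.0 on the arrays labelled IRF2 than at 806.3, 869.6 and 830.6 on the control arrays (log2 difference -0.32, SE 0.03, adjusted p = 6.61e-07). The RNA-binding protein gene Ro60, next to it, was lower by less (-0.13, SE 0.04, adjusted p = 0.0165, and between 0.0047 and 0.0912 over the alternatives). The glutaredoxin gene Glrx2, beyond it, was higher by 0.17 (SE 0.04, adjusted p = 0.0019). These 3 genes were named for their position, and the measured neighbours of Rgs2 thus lay on both sides of 0.

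With genes that have only a clone or model name left out, the 5 genes whose 6 array values lay closest to those of Rgs2 were Slc17a6, Acsl6, Fbxo2, Mpzl2 and Fabp5. Likeness was the root mean square difference of the log2 values over the 6 arrays, each gene centred on its own mean, and was between 0.08 and 0.09 for these 5. In their brightest probe sets, their differences ran from -1.53 for Fabp5, a fatty acid-binding protein, to -1.41 for Fbxo2, an F-box protein that binds glycoproteins. The difference of Acsl6, -1.48 as given, was -0.81 when its probe sets were averaged, and that of Mpzl2, -1.42 as given, was -0.89 with 16 added before the log. With 2 groups this measure picks genes with a fall of like size, and says nothing of a shared cause.

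G-protein subunit genes differed in both directions. Of 33 listed, 21 were tested, of which 4 rose and 7 fell, 52.4% against the 36.3% of all genes, with a median of -0.02. Among the alpha subunits on which the 8 regulators act, the Gq gene Gnaq rose to 243 ± 7.55 on the arrays labelled IRF2, against 211 ± 5.31 on the control arrays (SD, n = 3 each; log2 difference 0.20, SE 0.04, adjusted p = 5.52e-04), and all 7 of its probe sets were higher, by 0.07 to 0.27. Its close relative Gna11 was lower by 0.09 (SE 0.03, adjusted p = 0.0419, up to 0.177 over the alternatives), with the groups overlapping, and its call was lost without any of the arrays numbered 1 or 3. The Gi genes Gnai1 (-0.13, SE 0.03, limma adjusted p = 0.0024) and Gnai3 (-0.07, SE 0.02, limma adjusted p = 0.0218, up to 0.697 over the alternatives) were lower. The call of Gnai3 was lost without the replicate 1 array labelled IRF2 and without GFP control replicate 3. The other probe sets of Gnai1 gave -0.03 and -0.11, and that of Gnai3 gave -0.03. Gnai2, also a Gi gene, was not called (0.03, SE 0.04, limma adjusted p = 0.677), so the Gi genes did not all fall. Gna12, the gene of another alpha subunit, rose by 0.24 (SE 0.05, adjusted p = 5.26e-04), in the mean of 5 probe sets by 0.12 (adjusted p = 0.0709). Gnas, the stimulatory subunit gene, was higher by 0.16 (SE 0.02, adjusted p = 3.79e-06), and by 0.06 in the mean that takes in 4 dim probe sets (adjusted p = 0.473).

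The subunit gene with the largest change was Gng11, a gamma subunit. It read 79.4 ± 2.54 on the arrays labelled IRF2 and 46.8 ± 4.25 on the control arrays (SD, n = 3 each; log2 difference 0.76, SE 0.07, adjusted p = 6.24e-07). Gng2, another gamma subunit, fell to 31.2 ± 5.02 on the arrays labelled IRF2, against 39.9 ± 1.45 on the control arrays (-0.36, SE 0.10, adjusted p = 0.0076). In the mean of its probe sets Gng2 came to -0.24. The beta subunit gene Gnb4 fell by 0.27 (SE 0.03, adjusted p = 9.40e-06), and in all 3 of its probe sets. Gnb2 and Gng10 were lower by less, at -0.13 (SE 0.02) and -0.17 (SE 0.03). Gnaq, Gna11, Gnai1, Gnai3, Gnas, Gnb2 and Gng10 were named after their values were seen, to complete the list of 11. The uncalled Gnai2 was also named after its value was seen.

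Among the effectors and second-messenger genes, Adcy7 stood out. It encodes an adenylyl cyclase, an enzyme that makes cAMP under the control of alpha and beta-gamma subunits. Its brightest probe set read 59.2 ± 1.13 on the arrays labelled IRF2, against 126.5 ± 0.884 on the control arrays (SD, n = 3 each; log2 difference -1.09, SE 0.05, adjusted p = 3.31e-10). Its 2 other probe sets gave -1.06 and -0.32, the dimmer of which lay near the filter, at 10.3 on the arrays labelled IRF2 and 13.0 on the control arrays. Adcy9, another cyclase, fell by 0.34 (SE 0.08, limma adjusted p = 0.0039) and by 0.17 in the mean of its 4 probe sets. The other tested cyclase genes, Adcy1 to Adcy6, were not called, and ran from -0.13 for Adcy4 to 0.01 for Adcy3. Of the 4 tested genes of regulatory subunits of the cAMP-dependent kinase PKA, Prkar2a and Prkar2b fell, and Prkar1a (0.01) and Prkar1b (-0.05) were not called. Prkar2b read 139 ± 8.66 on the arrays labelled IRF2 and 190 ± 11.1 on the control arrays (SD, n = 3 each; limma log2 difference -0.45, SE 0.05, adjusted p = 9.53e-06). Prkar2a read 341 ± 10.3 on the arrays labelled IRF2 and 419 ± 14.2 on the control arrays (-0.30, SE 0.03, adjusted p = 6.32e-06). All 3 probe sets of Prkar2b fell alike, and 3 of the 4 of Prkar2a, whose dimmest one gave 0.14. Of the catalytic subunit genes, Prkaca was not called (-0.07), and Prkacb was higher by 0.12 (SE 0.04, adjusted p = 0.0385, and up to 0.130 over the alternatives), and its call was lost without the array labelled IRF2 numbered 2 or 3 and without GFP control replicate 1 or 2. The phosphodiesterase genes Pde4d and Pde8a, whose products break down cAMP, were higher by 0.26 (SE 0.06, adjusted p = 0.0040) and 0.19 (SE 0.04, adjusted p = 0.0020). Averaging its probe sets put Pde4d at 0.15 (limma adjusted p = 0.110). The other tested phosphodiesterase genes of the list, Pde7a (-0.14), Pde3b (-0.03) and Pde4a (0.03), were not called. Itpr3, the gene of a calcium release channel gated by inositol trisphosphate, rose by 0.23 (SE 0.04, adjusted p = 1.38e-04). Prkca, a protein kinase C gene, fell by 0.22 (SE 0.05, limma adjusted p = 0.0037), with -0.16 and -0.15 in its other probe sets. The PKA genes other than Prkar2a and Prkar2b, and Itpr3 and Prkca, were named after their values were seen. So were the phosphodiesterase genes and the cyclase genes other than Adcy7 and Adcy9. In all, 33 of 46 listed effectors were tested, of which 4 rose and 5 fell, with a median of -0.04. The share called, 27.3%, was under the 36.3% of all genes tested.

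Of 49 listed receptors and arrestins, 23 were tested, of which 5 rose and 1 fell, with a median of 0.02. The share called, 26.1%, was under the 36.3% of all genes tested. F2r, the thrombin receptor, which couples to Gq, G12 and Gi proteins, rose to 1724 ± 8.95 on the arrays labelled IRF2, against 1311 ± 44.5 on the control arrays (SD, n = 3 each; log2 difference 0.40, SE 0.03, adjusted p = 1.12e-08; 0.31 in its other probe set). Of the 4 tested receptors for lysophosphatidic acid, Lpar4, a dim one, rose, at 20.4 ± 1.75 on the arrays labelled IRF2 and 12.2 ± 1.33 on the control arrays (0.74, SE 0.10, adjusted p = 3.51e-05), and came to 0.37 with 16 added before the log. Lpar6 rose by 0.28 (SE 0.06, adjusted p = 0.0012), and Lpar1 by 0.26 (SE 0.05, adjusted p = 4.08e-04; 0.22 to 0.26 over its 3 probe sets). Lpar2 was not called (-0.13, SE 0.09, adjusted p = 0.301). Lpar1 and Lpar2 were named after their values were seen. Ackr3, an atypical chemokine receptor that signals through arrestins, rose by 0.33 (SE 0.04, adjusted p = 2.30e-05). The receptor that fell, P2ry1, was at -0.15 (SE 0.05, adjusted p = 0.0435), and its adjusted p reached 0.154 among the alternatives; the call was lost whichever array was left out.

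Partners of the regulators changed little. Of 23 listed, 21 were tested, of which 2 rose and 2 fell, with a median of 0.02. The share called, 19.05%, was under the 36.3% of all genes tested. Fbxo44, the F-box protein known in human cells to mark RGS2 for degradation, fell to 71.0 ± 1.60 on the arrays labelled IRF2, against 84.7 ± 4.08 on the control arrays (SD, n = 3 each; log2 difference -0.25, SE 0.06, adjusted p = 0.0021), and by 0.16 in the mean of its 2 probe sets. Ddb1, the adaptor of the cullin ligase in which it works, rose by 0.15 (SE 0.03, adjusted p = 8.81e-04). Eif2b3, a subunit of the translation factor eIF2B, fell by 0.14 (SE 0.03, adjusted p = 0.0020), and the scaffold gene Ppp1r9a (neurabin) rose by 0.31 (SE 0.07, adjusted p = 0.0023).

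**Figure D3:**
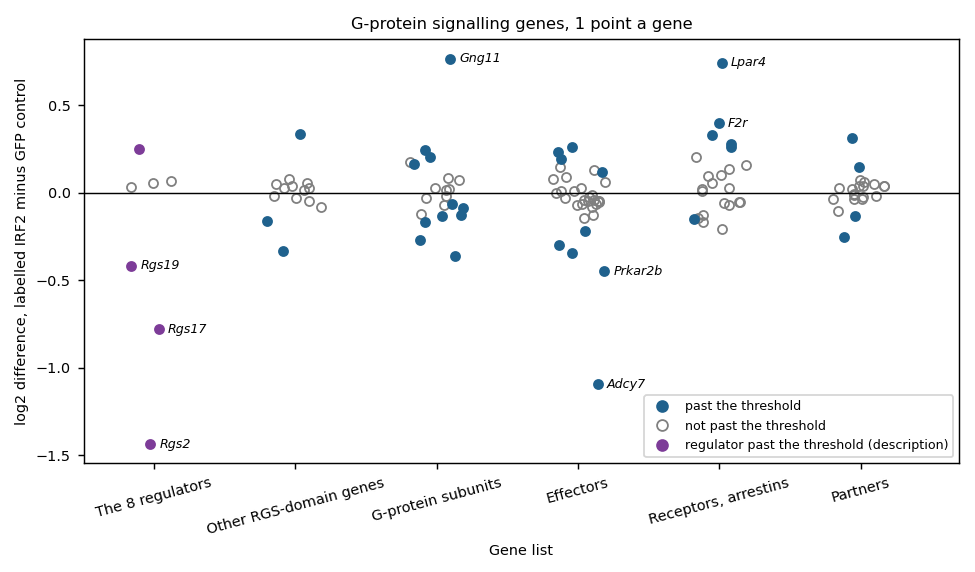
Log2 difference, arrays labelled IRF2 minus GFP control arrays, of each tested gene in the 6 lists; each point is 1 gene, filled where it passed the threshold of 0.05, and spread sideways only for legibility. Rgs2 at -1.44 and Adcy7 at -1.09 lie lowest, and Gng11 at 0.76 and Lpar4 at 0.74 lie highest.

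Markers of cell types were read beside these values. The keratin genes Krt8, Krt18 and Krt19 were bright in both groups, whereas Vil1, the villin gene that marks intestinal epithelium, averaged 5.83 on the arrays labelled IRF2 and 6.73 on the control arrays, near the level of the tryptophan controls. Cdh17 and Cdx2, of the same list, lay well above those controls. Cdh17 averaged 187.5 on the arrays labelled IRF2 and 279.0 on the control arrays, and Cdx2 averaged 86.0 and 93.5 in the same order. Among epithelial adhesion genes, Cdh1 was lower by 0.75 (SE 0.04), Epcam by 0.81 (SE 0.11) and Cdh17 by 0.57 (SE 0.03) on the log2 scale. The claudin genes Cldn3 (-0.07) and Cldn7 (-0.12) were not called. The other probe set of Epcam gave -0.04, and the mean of both -0.43 (adjusted p = 0.0013). Krt8 was higher by 0.50 (SE 0.02). Krt18 was higher by 0.08 (SE 0.02, limma adjusted p = 0.0025, up to 0.0866 over the alternatives). Of the 9 epithelial markers tested, 2 rose and 3 fell, and the summed intensity of all 10 was 16106 to 16242 on the arrays labelled IRF2 and 14622 to 14763 on the control arrays. This sum is mostly that of the 3 keratins, and Krt8 alone averaged 4999 on the arrays labelled IRF2 and 3533 on the control arrays. The sum therefore says little of the other epithelial markers. The defining markers Ptprc of immune cells and Pecam1 of endothelium averaged between 4.48 and 5.48 in the 2 groups. Other members of these lists were brighter. Cd14 averaged 136.6 on the arrays labelled IRF2 and 120.1 on the control arrays. In the same order, Cd68 averaged 77.95 and 77.55, and Egfl7 48.9 and 56.9. Which cells these signals came from was not tested. The summed immune markers were 289 to 303 on the arrays labelled IRF2 and 263 to 296 on the control arrays, the endothelial ones 118 to 130 on the arrays labelled IRF2 and 125 to 132 on the control arrays, and the neural ones 84.2 to 92.8 on the arrays labelled IRF2 and 86.6 to 90.8 on the control arrays, each with overlap. Cd14 of the immune list was higher by 0.18 (SE 0.06) and Egfl7 of the endothelial list was lower by 0.22 (SE 0.07), and leaving out some single arrays lost either call. The 10 fibroblast and muscle markers summed to 289 to 305 on the arrays labelled IRF2 and 264 to 265 on the control arrays, with Pdgfra (0.70) and Acta2 (0.37) higher, Pdgfrb lower (-0.40) and Col1a1 under the filter. In the mean of probe sets Pdgfra came to 0.36, and the calls of Acta2 (0.11, adjusted p = 0.229) and Pdgfrb (-0.16, adjusted p = 0.0727) were lost. The part of these differences in those of the regulators was not tested. In RNA of a whole culture, fewer cells with a transcript and less transcript per cell cannot be told apart.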

How the data were processed

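Biotin-labelled total RNA was read on 6 Affymetrix 3' expression arrays, 3 labelled IRF2 and 3 GFP control, grouped by sample title. The values deposited by the authors are intensities on a linear scale; the submitters' processing notes name MAS5, with no role or version, and the sources used here do not state how the authors scaled the arrays. No further scaling was applied. Probe sets with 1 gene symbol (34945) were named from GEO's platform annotation, with symbols updated through a RefSeq gene table. The fit on log2 values of 12795 genes used limma 3.58.1 under R 4.3.3 (lmFit, eBayes with an intensity trend, group as the only term, 4 residual degrees of freedom, two-sided, Benjamini-Hochberg). The number of arrays limits the precision. In simulated data with 200 of 12795 genes changed between these groups, the fit recovered 44.8% of log2 changes of 0.2, 91.0% of 0.5 and 100% of 1, and 4.85% of its calls were false. In the data a far larger share of genes, 36.3%, was called, so these shares need not hold for the real fit. SEs of single probe sets come from the same fit over all probe sets above the filter. The named genes were the 8 regulators, the other RGS genes above the filter, up to 4 genes a list with the largest called difference without overlap, called markers, and the 5 genes closest to Rgs2. Clone and model names were left out of the choice of these 5. The members and lists were chosen with earlier results of these data known. Listed genes with no probe set of 1 gene symbol in that annotation were not analysed here. Alternatives changed the pseudocount, filter, probe set rule, scaling, variance model, replicate term and arrays used.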

Additional observations from a re-analysis of the deposited data

How the results depend on the processing

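Each count of called genes stayed within 1.5 times its reported value under all 14 alternatives. The count over all genes, 4642 as reported, was 3800 without the intensity trend and 3959 in the mean of probe sets, and ran from 3951 to 4399 when 1 array was left out. Of the regulators, 4 were called throughout, except 3 in the mean of probe sets, where Rgs12 was lost; leaving out any 1 array left 4. With the replicate number as a block, 4678 genes and 4 regulators were called, and of the pathway lists the receptors lost 1 call, to 5. Deviations of arrays with the same number correlated at 0.07, -0.08 and -0.0008 over genes, so the numbers were not taken to pair the arrays. The uncalled Rgs9 turned in sign, to -0.022 in the mean of probe sets, and ran from -0.061 (without GFP control replicate 2) to 0.097 with 1 array left out, also turning without the replicate 1 array labelled IRF2. Rgs11 ran from -0.18 to 0.0074, the highest without GFP control replicate 3. The cause was not tested. Quantile normalization gave 2302 genes higher and 2376 lower, against 2111 and 2531 as reported. Signals near the tryptophan controls, as in Rgs16, limit what could be detected.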
